A study of Homo sapiens with 40 samples.

Results

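CA2, CD59, TMEM198, PSKH1 and LHFPL4 are 5 of the 19962 genes in the deposited count table. They were picked by symbol because their RNA showed some of the largest changes when IGF2BP3 was depleted with siRNA, so their values in that comparison are a description and are not tested here. Changes in the other libraries of the series were not part of the rule of choice, but the choice was made with earlier results of these data known. The question asked of those libraries was whether the same genes moved when IGF2BP3 was knocked out or when its paralog IGF2BP2 was depleted. All 5 genes passed the filter on low counts, which left 11428 genes.

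The 40 libraries came from RKO cells, an established line of human colorectal carcinoma that carries GFP and a Cas9 nuclease switched on by doxycycline (Dox). Lentivirus with BFP brought in a pair of guide RNAs against IGF2BP3 (sgIGF2BP3 cells), against IGF2BP2 (sgIGF2BP2 cells) or against the non-coding AAVS1 locus (sgAAVS1 cells), and each line was sorted for BFP, with no cloning mentioned in the labels. Within each line, cells were given Dox at 250 ng/mL for 72 hours, or DMSO as the uninduced control. In sgIGF2BP3 and sgIGF2BP2 cells, further wells were transfected at 75 nM for 48 hours with a pool of siRNAs against the same gene (siIGF2BP3 or siIGF2BP2) or with a single non-targeting siRNA (siControl), without Dox. Every well, controls included, received the labelling nucleoside s4U at 250 µM for 2 hours, and poly(A) RNA was sequenced after alkylation. Each of the 10 groups has 4 libraries, each from a well of a 24-well plate; nothing in the labels says that wells of a group were separate cultures, so p-values measure only the spread between these libraries.

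IGF2BP2 and IGF2BP3 are closely related cytoplasmic RNA-binding proteins that bind messenger RNAs, largely in their 3′ untranslated regions, and are known for raising the stability of many of the messages they hold. IGF2BP3 is a fetal protein that many carcinomas re-express.

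The knockout arm rests on 4 guides, shown here because they define which gene was cut, in which exon. Each is written 5′ to 3′ in lower case as the labels give it, followed in capitals by the 3 bases (the PAM that Cas9 needs) read next to the match in GRCh38.
IGF2BP3 guide in exon 11: tggcaccgactgatagagctGGG
IGF2BP3 guide in exon 1: gaagatactttctaggtccgAGG
IGF2BP2 guide in exon 5: atatgtgacgttgacaacggCGG
IGF2BP2 guide in exon 10: gtgcgctgaggttcaaccctGGG
The IGF2BP3 guides match chr7:23319200-23319219 and chr7:23470045-23470064, in exons of a GENCODE transcript with 15 exons. The IGF2BP2 guides match chr3:185692722-185692741 and chr3:185672630-185672649, in exons of a transcript with 16. All 4 lie on the strand opposite to the transcript. In the annotated transcripts of the 5 genes, no stretch followed by an NGG came closer than 6 mismatches to an IGF2BP2 guide or 7 to an IGF2BP3 guide. The sequences of the siRNAs are not given in the labels and were not analysed here.

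Library totals ran from 10018181 to 24822807 counts (median 13468792), and levels below are CPM, counts scaled to library size with TMM factors. The targets were checked first. IGF2BP3 stood at 25.01, 24.9, 26.4 and 22.6 CPM with siIGF2BP3 and at 168, 173, 164 and 174 CPM with siControl, which leaves 14.6%. With Dox in sgIGF2BP3 cells it stood at 56.1, 58.5, 59.1 and 51.1 CPM against 180, 181, 175 and 185 CPM with DMSO, which leaves 31.2%. In sgIGF2BP2 cells, IGF2BP2 was left at 27.9% of siControl by siIGF2BP2 and at 39.7% of DMSO by Dox. The siControl level of IGF2BP2 was itself 127% of DMSO there, and siIGF2BP2 left 35.5% of DMSO. The paralog IGF2BP3 stood at 84.5% of DMSO with Dox in these cells (log2 fold change -0.25), and at 97.3% of siControl with siIGF2BP2. RNA of a cut gene does not measure its protein, and protein was not analysed here. IGF2BP3 shares 1521 exon bases with MALSU1 on the opposite strand. Whether the authors' counting used strand is not stated, so reads of the 2 genes in those bases cannot be told apart. Of 8 epithelial and colon markers, KRT8, KRT18, EPCAM and CDX2 were found in every library, while KRT19, CDH1, VIL1 and LGALS4 never exceeded 4 counts. Of 9 markers of other cell types, 8 never exceeded 11 counts, and CD68 lay between 1.11 and 3.52 CPM. With siIGF2BP2, where 2 of the 5 members and 36.8% of all genes were called, KRT8 rose by 0.55 and KRT18 fell by 0.49. Their part in the members' values was not tested.

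CA2 and CD59 were lower after siIGF2BP3, with 26.3% and 51.7% of the siControl level left, and neither passed the test after IGF2BP3 knockout or siIGF2BP2. TMEM198 and PSKH1 were higher after siIGF2BP3, did not pass the test after IGF2BP3 knockout, and rose after siIGF2BP2, to 205% and 149.5% of siControl. LHFPL4 was higher after siIGF2BP3 and passed the test in none of the comparisons that the choice did not use. In edgeR's quasi-likelihood test with Benjamini-Hochberg adjustment over the 11428 genes (a gene is called at an adjusted p under 0.05), 0 of the 5 were called for Dox against DMSO in sgIGF2BP3 cells, where 2.64% of all genes were; 1 of the 5, TMEM198, had an unadjusted p under 0.05, and DESeq2 called 0. For siIGF2BP2 against siControl 2 of the 5 were called, both higher, where 36.8% of all genes were called and 18.4% were called higher; 2 of 5 lies close to the first of these shares. For siIGF2BP3 against siControl the background was 2.34%, and the count of members there follows from how they were chosen.

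**Figure D1:**
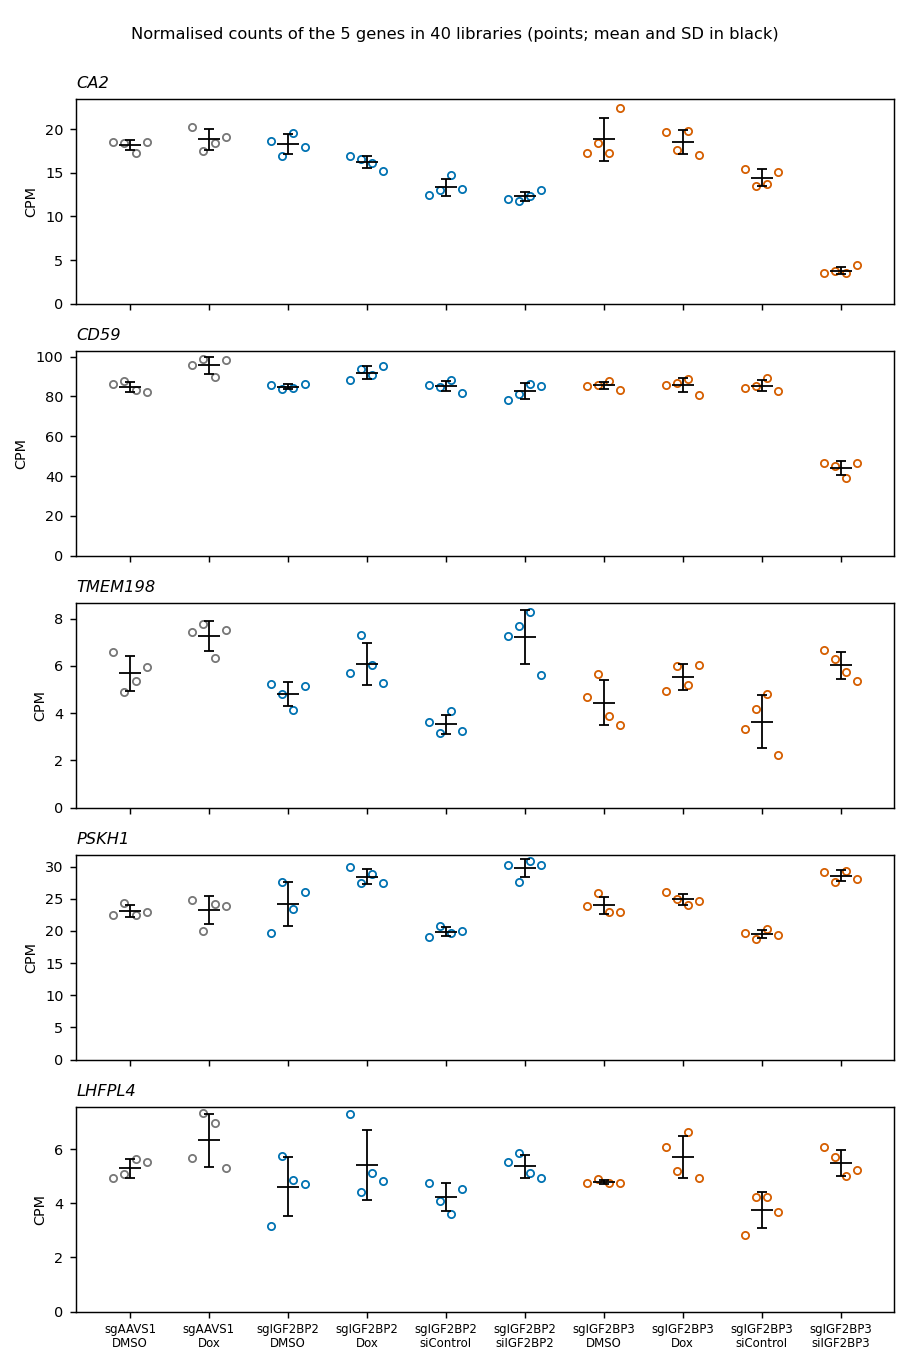
CPM of the 5 genes (y axes, from 0) in the 10 groups (x axis), 1 panel per gene; points are libraries, ordered by replicate number, and black marks are the mean and SD of 4 libraries. CA2 and CD59 drop in the siIGF2BP3 group, where CA2 lies between 3.49 and 4.43 CPM and CD59 between 38.8 and 46.5 CPM; PSKH1 lies lowest in both siControl groups.

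The choice itself can be described by rank. Genes were ranked by fold change if they were called for siIGF2BP3 against siControl and did not overlap between the groups. Their log2 CPM also had to average 2 or more over the 40 libraries. Of these genes, 152 were lower and 95 higher. IGF2BP3 itself headed the lower genes, CA2 was the second and CD59 the sixth; RAB6A, PM20D2 and MAT2B lay between them and are not among the 5. Just past CD59 (log2 fold change -0.95) came USP18 (-0.93). TMEM198, PSKH1 and LHFPL4 were the first, the second and the third of the higher genes, and UNC5A (0.49) came just after LHFPL4 (0.54).

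CA2 encodes carbonic anhydrase II, a cytosolic enzyme that interconverts carbon dioxide and bicarbonate and that normal colon surface cells use in ion transport. The gene lies at chr8:85463852-85481493 on the plus strand (GRCh38). In sgIGF2BP3 cells its level was 3.49, 3.76, 3.53 and 4.43 CPM with siIGF2BP3 and 15.4, 13.5, 13.8 and 15.1 CPM with siControl. Every siIGF2BP3 library lay below the other 36 libraries of the series, the lowest of which held 11.8 CPM. The log2 fold change was -1.92 ± 0.11 (SE). The counts come from whole wells, so fewer cells with the RNA and less RNA per cell cannot be told apart.

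After knockout of IGF2BP3, no difference in CA2 was detected. Dox libraries of sgIGF2BP3 cells held 19.7, 17.6, 19.8 and 17.04 CPM and DMSO libraries 17.3, 18.4, 17.2 and 22.5 CPM. The groups overlapped, and the log2 fold change was -0.03 (95% interval -0.18 to 0.13, adjusted p = 0.907). The interval does not reach the -1.92 seen with siIGF2BP3. That value comes from the comparison that chose the gene, so no test of a difference between knockout and siIGF2BP3 is read from it. The treatments also differ in hours and in the IGF2BP3 RNA left, and the part of each was not tested. The log2 fold change with Dox turned to 0.07 without DMSO replicate 4, the library at 22.5 CPM, and to 0.01 without Dox replicate 4.

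With siIGF2BP2, CA2 held 12.04, 11.8, 12.3 and 13.0 CPM against 12.5, 13.0, 14.8 and 13.1 CPM with siControl in the same line. The groups overlapped and the gene was not called (log2 fold change -0.11, 95% interval -0.28 to 0.06, adjusted p = 0.324). The siControl libraries were themselves lower than the DMSO libraries of sgIGF2BP2 cells, which held 18.6, 16.9, 19.6 and 18.0 CPM. All 4 siControl libraries lay below all 4 DMSO libraries, and CA2 fell by 0.47 ± 0.08 on the log2 scale (adjusted p = 5.35e-06). Against DMSO, siIGF2BP2 left 67.3% ± 2.96 (SD, n = 4) and siControl 73.1% ± 5.36 of the level. The siControl and DMSO groups differ in transfection, siRNA and hours of treatment, which cannot be told apart.

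The same held as a description in sgIGF2BP3 cells, where CA2 stood at 76.6% ± 5.15 of the DMSO mean with siControl and at 20.2% ± 2.30 with siIGF2BP3. After Dox, CA2 had a log2 fold change of 0.05 (adjusted p = 0.714) in sgAAVS1 cells and of -0.18 (adjusted p = 0.0905) in sgIGF2BP2 cells. In the latter the 4 Dox libraries (16.9, 16.6, 16.2 and 15.3 CPM) lay below the 4 DMSO libraries, by less than the printed digits for the closest pair.

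CD59 encodes a small protein held at the cell surface by a glycosylphosphatidylinositol (GPI) anchor, where it stops the last step of complement attack by keeping C9 from joining the membrane pore. The gene lies at chr11:33703010-33736491 on the minus strand. With siIGF2BP3 it held 46.5, 44.9, 38.8 and 46.4 CPM, and with siControl 84.2, 85.4, 89.1 and 82.9 CPM (log2 fold change -0.95 ± 0.05). The other 36 libraries of the series, of every line and treatment, lay between 78.1 and 98.6 CPM. A same-strand gene, ENSG00000284969, shares 629 exon bases with CD59 but never exceeded 7 counts in a library, against at least 473 for CD59.

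No difference in CD59 was detected after knockout of IGF2BP3. In sgIGF2BP3 cells it held 85.7, 86.9, 89.0 and 81.0 CPM with Dox and 85.4, 86.0, 87.9 and 83.3 CPM with DMSO. The log2 fold change was -0.0009 (95% interval -0.09 to 0.08, adjusted p = 0.996). The -0.95 seen with siIGF2BP3 lies outside this interval. As for CA2, it comes from the comparison that chose the gene, so no test is read from it. The hours and the IGF2BP3 RNA left differ here too.

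With siIGF2BP2 CD59 held 78.1, 81.2, 86.3 and 85.4 CPM, and with siControl 85.9, 84.9, 88.3 and 82.0 CPM. The groups overlapped (log2 fold change -0.04, 95% interval -0.13 to 0.04, adjusted p = 0.475). Unlike CA2, CD59 did not differ detectably between siControl and DMSO in sgIGF2BP2 cells (log2 fold change 0.01, 95% interval -0.08 to 0.09, adjusted p = 0.944), where siControl stood at 100.4% of the DMSO mean.

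CD59 was the single member called with Dox in the control line. In sgAAVS1 cells it held 96.01, 98.6, 89.6 and 98.1 CPM with Dox and 86.2, 87.9, 83.4 and 82.4 CPM with DMSO. All Dox libraries lay above all DMSO libraries, and it rose by 0.17 ± 0.04 (adjusted p = 0.00266), 1 of the 5 genes to be called where 15.9% of all genes were. In sgIGF2BP2 cells it rose by 0.12 ± 0.04 with Dox (adjusted p = 0.0413), where 20.4% of all genes were called and 2 of the 5 members, CD59 and PSKH1. That call was lost in 12 of 16 alternative fits (adjusted p between 0.0268 and 0.132), among them those without any single library of the comparison other than Dox replicate 1. The Dox effect in sgIGF2BP3 cells was smaller than that in sgAAVS1 cells by 0.17, which did not pass the test (adjusted p = 0.0627) but passed in 4 of 24 alternatives: without sgAAVS1 Dox replicate 3 (0.0356), without sgIGF2BP3 Dox replicate 3 (0.0486), with DESeq2 (0.0365) and in a fit of only those groups (0.0408). In this difference 7.78% of all genes were called, and edgeR called none of the 5, with 1 at an unadjusted p under 0.05.

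TMEM198 encodes a membrane protein with several membrane-spanning segments that has been described as a helper in Wnt signalling, where it brings casein kinase 1 to the receptor LRP6. The gene lies at chr2:219543663-219550595 on the plus strand. It is a low-abundance message, with 28 to 132 counts per library. With siIGF2BP3 it held 6.66, 6.28, 5.75 and 5.37 CPM, and with siControl 3.32, 4.19, 4.81 and 2.25 CPM (log2 fold change 0.72 ± 0.16). The groups did not overlap, which was a condition of the ranking above and is not read as support. The siControl level was also below DMSO, with 82.1% ± 25.1 of the DMSO mean, against 135% ± 12.8 with siIGF2BP3.

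In libraries that the choice did not use, TMEM198 rose with siIGF2BP2. It held 7.27, 7.70, 8.26 and 5.61 CPM, against 3.62, 3.15, 4.07 and 3.24 CPM with siControl. The log2 fold change was 1.02 ± 0.15 (adjusted p = 7.95e-08), with every siIGF2BP2 library above every siControl library. Against the DMSO libraries (5.21, 4.80, 4.12 and 5.16 CPM), a comparison added after the siControl levels were seen, the rise was 0.60 ± 0.14 (adjusted p = 0.000414), which is smaller than the rise over siControl by more than 1.5 times. In that comparison 44.5% of all genes were called, and 3 of the 5, CA2, TMEM198 and PSKH1. Between siControl and DMSO, the log2 fold change was -0.42 (adjusted p = 0.0521); all siControl libraries lay below all DMSO libraries, and 7 of 16 alternatives called it, among them those without DMSO replicate 3 (0.0335) and without siControl replicate 3 (0.0408) of sgIGF2BP2 cells.

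Knockout gave smaller values of the same sign. TMEM198 held 4.92, 5.99, 5.20 and 6.01 CPM with Dox in sgIGF2BP3 cells and 4.70, 5.66, 3.89 and 3.51 CPM with DMSO, and the groups overlapped (log2 fold change 0.31, 95% interval 0.0045 to 0.61, adjusted p = 0.292). In sgAAVS1 cells, whose guides target neither gene, the Dox value was 0.36 (adjusted p = 0.0722), and in sgIGF2BP2 cells 0.38 (adjusted p = 0.0575). Leaving out sgAAVS1 DMSO replicate 1 (0.0493) or sgIGF2BP2 Dox replicate 4 (0.0380) brought a call in those lines. In sgAAVS1 cells TMEM198 was also called in a fit of only the groups compared (0.0459) and with an offset for GC content and length (0.0453). The Dox effects of sgIGF2BP3 and sgIGF2BP2 cells differed from that of sgAAVS1 cells by -0.05 (95% interval -0.46 to 0.37) and 0.02 (95% interval -0.38 to 0.43).

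The difference between siIGF2BP2 and knockout was itself tested for TMEM198, in comparisons added after the values were seen. The siIGF2BP2 effect was larger than the Dox effect by 0.64 ± 0.21 in the same sgIGF2BP2 cells (adjusted p = 0.0174) and larger than the Dox effect in sgIGF2BP3 cells by 0.71 ± 0.21 (adjusted p = 0.0130). The latter was 0.56 and not called (adjusted p = 0.0716) without sgIGF2BP3 DMSO replicate 2. Of all genes, 26.1% and 18.7% were called in these comparisons. These effects set siIGF2BP2 against siControl and Dox against DMSO. Over the DMSO libraries of sgIGF2BP2 cells, the log2 fold changes of TMEM198 were 0.60 with siIGF2BP2, 0.38 with Dox and -0.42 with siControl. The arms differ in agent, in hours, in control group and in how much target RNA was left, and the part of each was not tested.

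PSKH1 encodes a protein serine kinase of the calcium/calmodulin-dependent group, found at the Golgi and in the nucleus. The gene lies at chr16:67893272-67929678 on the plus strand. With siIGF2BP3 it held 29.1, 27.7, 29.4 and 28.1 CPM, and with siControl 19.6, 18.8, 20.3 and 19.3 CPM (log2 fold change 0.55 ± 0.07). The levels of both groups were narrow, with SDs of 0.83 and 0.66 CPM. They did not overlap, which was a condition of the ranking above and is not read as support.

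PSKH1 also rose with siIGF2BP2. It held 30.3, 27.6, 30.9 and 30.2 CPM against 19.1, 20.7, 19.7 and 20.04 CPM with siControl, again without overlap. The log2 fold change was 0.58 ± 0.07 (adjusted p = 1.05e-10). PSKH1 was lower with siControl than with DMSO (19.7, 27.6, 23.5 and 26.0 CPM) in this line, where it fell by 0.28 ± 0.07 (adjusted p = 0.00185), although DMSO replicate 1 lay among the siControl values. Against DMSO, the rise with siIGF2BP2 was 0.30 ± 0.07 (adjusted p = 0.00013), again under the value against siControl by over 1.5 times. In sgIGF2BP3 cells, siControl stood at 81.5% ± 2.77 and siIGF2BP3 at 119% ± 3.46 of the DMSO mean.

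**Figure D2:**
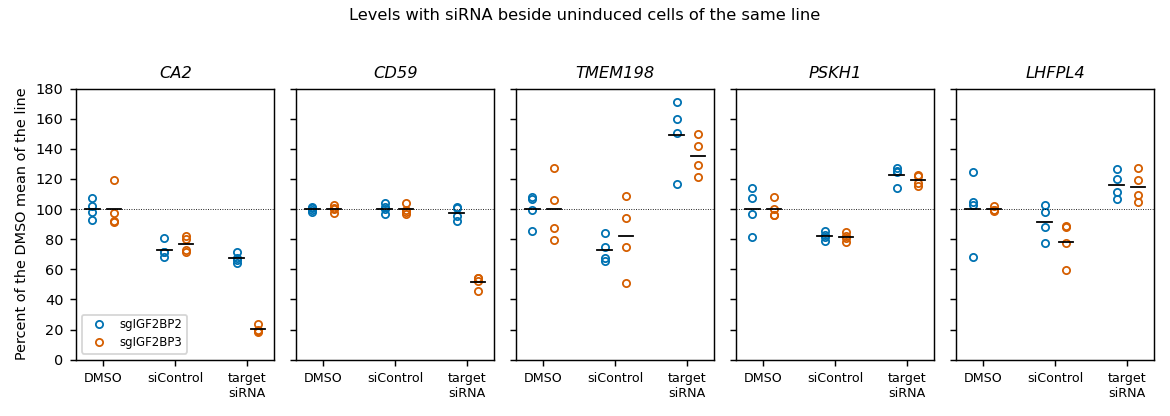
Levels as percent of the DMSO mean of the same line (y axis, from 0) for DMSO, siControl and the siRNA against the target of the line (x axis); points are libraries, bars are means of 4. CA2 and PSKH1 lie below the dotted 100% line with siControl in both lines, CA2 at 73.1% and 76.6% and PSKH1 at 82.2% and 81.5%, while CD59 lies at 100.4% and 99.7%.

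After Dox, no difference in PSKH1 was detected in sgIGF2BP3 cells. Its level was 26.1, 24.9, 24.0 and 24.7 CPM with Dox and 23.9, 25.9, 22.97 and 23.01 CPM with DMSO, with overlapping groups (log2 fold change 0.05, 95% interval -0.08 to 0.19, adjusted p = 0.748). In sgAAVS1 cells the value was 0.01 (adjusted p = 0.938). In sgIGF2BP2 cells it rose by 0.23 ± 0.07 (29.9, 27.5, 28.9 and 27.5 CPM with Dox, adjusted p = 0.00757), with DMSO replicate 2 overlapping the Dox range. That call was lost without DMSO replicate 1, the library at 19.7 CPM (0.16, adjusted p = 0.0881), and with an offset for GC content and length (adjusted p = 0.0529).

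The siIGF2BP2 effect on PSKH1, taken over siControl, was larger than the Dox effect, taken over DMSO. The difference was 0.35 ± 0.10 within sgIGF2BP2 cells (adjusted p = 0.00362) and 0.53 ± 0.10 against sgIGF2BP3 cells (adjusted p = 2.46e-05). Over the DMSO libraries of sgIGF2BP2 cells, the log2 fold changes of PSKH1 were 0.30 with siIGF2BP2, 0.23 with Dox and -0.28 with siControl. The part of the siControl level in the difference was not tested. The Dox effects themselves did not differ between lines by the test: sgIGF2BP2 minus sgAAVS1 gave 0.22 (95% interval 0.03 to 0.42, adjusted p = 0.156), where 6.97% of all genes were called; edgeR called 0 of the 5, 2 had an unadjusted p under 0.05 and DESeq2 called 0. For CD59 the siIGF2BP2 effect was below the Dox effect in sgIGF2BP2 cells by 0.16 (adjusted p = 0.0436); 13 of 24 alternatives lost that call, 9 of them by leaving out 1 library.

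LHFPL4 encodes a tetraspan membrane protein that, in neurons, holds GABA-A receptors and neuroligin-2 at inhibitory synapses. The gene lies at chr3:9498361-9553802 on the minus strand. It is as scarce as TMEM198, with 29 to 119 counts per library. With siIGF2BP3 it held 6.07, 5.70, 5.01 and 5.23 CPM, and with siControl 2.83, 4.25, 4.22 and 3.69 CPM (log2 fold change 0.54 ± 0.15). Relative to the DMSO mean, these were 115% ± 10.0 and 78.3% ± 13.8.

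For LHFPL4 the libraries separated in both independent comparisons but the tests did not pass. With Dox in sgIGF2BP3 cells it held 6.07, 5.20, 6.65 and 4.94 CPM against 4.76, 4.89, 4.74 and 4.75 CPM with DMSO (log2 fold change 0.25, 95% interval -0.04 to 0.53, adjusted p = 0.400). With siIGF2BP2 it held 5.54, 5.85, 5.13 and 4.93 CPM against 4.74, 4.07, 3.59 and 4.52 CPM with siControl (log2 fold change 0.33, 95% interval 0.03 to 0.62, adjusted p = 0.0717). In the first comparison 10.4% of all genes had groups without overlap, and in the second 30.6%; of the 5 genes it was 1 and 3. Dox gave values of 0.24 in sgAAVS1 cells and 0.21 in sgIGF2BP2 cells (adjusted p = 0.260 and 0.349). In sgIGF2BP2 cells the value for LHFPL4 was 0.02 without Dox replicate 1, the library at 7.30 CPM, and 0.09 without DMSO replicate 1, at 3.14 CPM.

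**Figure D3:**
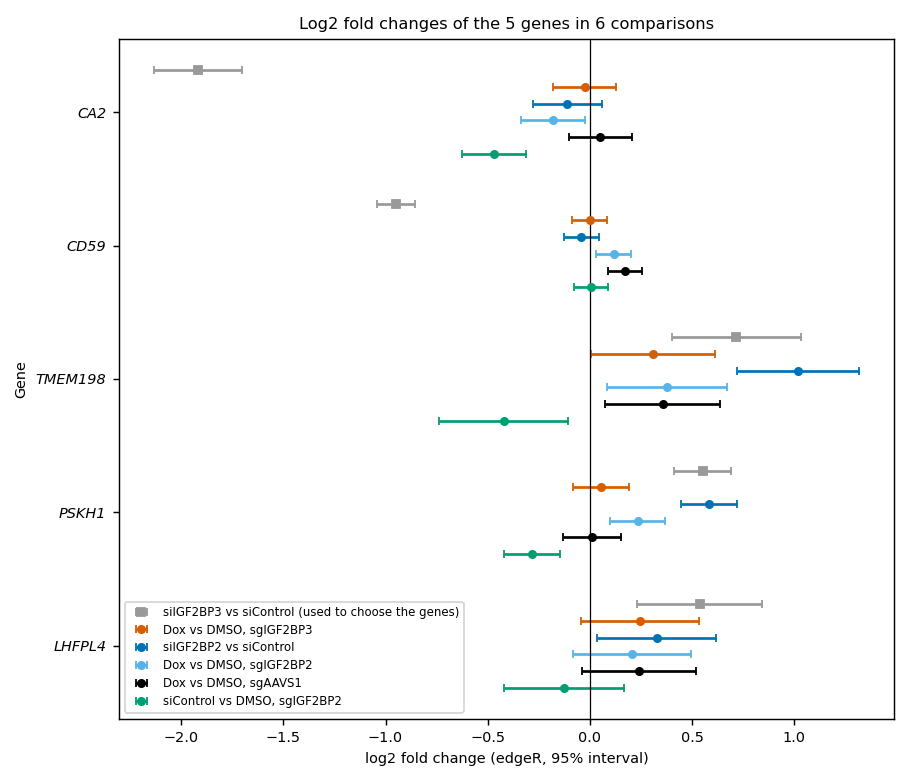
Log2 fold changes (x axis) of the 5 genes (y axis) with 95% intervals in 6 comparisons, by colour; the grey squares are siIGF2BP3 against siControl, which was used to choose the genes. For CA2 and CD59 the grey squares stand at -1.92 and -0.95 with the other intervals near 0, apart from siControl against DMSO for CA2 at -0.47; for TMEM198 and PSKH1 the siIGF2BP2 values, 1.02 and 0.58, stand with the grey ones.

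Uninduced lines gave no baseline difference that passed the test for any of the 5. Between DMSO libraries, sgIGF2BP3 minus sgAAVS1 was -0.34 for TMEM198 (95% interval -0.64 to -0.05, adjusted p = 0.349) and between -0.15 and 0.06 for the others. sgIGF2BP2 minus sgAAVS1 was -0.26 for TMEM198 (adjusted p = 0.786) and between -0.19 and 0.06 for the others. In each comparison edgeR called 2 genes of 11428 (0.0175%), with 1327 and 722 genes at an unadjusted p under 0.05 and 7 and 2 called by DESeq2. Of the 5 members, 1 (TMEM198) and 0 had an unadjusted p under 0.05, and DESeq2 called 0 in both.

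Over the 10 group means, the order of levels differed by gene. For CA2 the 3 DMSO groups and the Dox groups of sgAAVS1 and sgIGF2BP3 cells came first (18.2 to 18.8 CPM), then sgIGF2BP2 Dox (16.2), the siControl groups (14.4 and 13.4), siIGF2BP2 (12.3) and siIGF2BP3 (3.80); only the steps above sgIGF2BP2 Dox and above siIGF2BP3 had ranges that did not overlap. For CD59 only the last step, from siIGF2BP2 (82.8 CPM) to siIGF2BP3 (44.1 CPM), did so. PSKH1 ran from siIGF2BP2 (29.7 CPM), siIGF2BP3 (28.6) and sgIGF2BP2 Dox (28.4) down to the siControl groups (19.9 and 19.5), with gaps below sgIGF2BP2 Dox and above the siControl groups. For TMEM198 no neighbours in the order were separate, from sgAAVS1 Dox (7.26 CPM) and siIGF2BP2 (7.21 CPM) down to the siControl groups (3.64 and 3.52 CPM). LHFPL4 ran from 6.32 CPM (sgAAVS1 Dox) to 3.75 CPM (siControl of sgIGF2BP3 cells), with 1 gap, between the DMSO groups of sgAAVS1 (5.30 CPM) and sgIGF2BP3 cells (4.78 CPM). Per kilobase of annotated exon, the mean levels over the 40 libraries were 7.98 for CD59, 7.20 for CA2, 6.17 for PSKH1, 2.10 for TMEM198 and 0.957 for LHFPL4 (RPKM).

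Genes with the most similar pattern were found by Pearson's r of log2 CPM over the 40 libraries, among the 9957 genes whose log2 CPM averaged 2 or more. The libraries share cells, lines and treatments, so r is a description. For CA2 they were MAT2B (0.948), RAB6A (0.935) and CD59 (0.934), and for CD59 RAB6A (0.962), MAT2B (0.960) and CA2. MAT2B encodes the regulatory subunit of methionine adenosyltransferase, and RAB6A a small GTPase of Golgi transport. The likeness rests on the 4 siIGF2BP3 libraries, which form a separate cluster: over the other 36, r was 0.460 for CA2 with MAT2B, 0.170 with RAB6A and 0.312 with CD59, and 0.0409 for CD59 with RAB6A. MAT2B and RAB6A had log2 fold changes of -0.98 and -1.34 with siIGF2BP3. With Dox in sgIGF2BP3 cells both were at -0.04 (adjusted p = 0.699 and 0.685), and with siIGF2BP2 they were at -0.0016 and -0.08 (adjusted p = 0.982 and 0.150).

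The genes nearest to the higher 3 were others. For TMEM198 they were ATP6V0A1 (0.733), SPOCD1 (0.726) and GPX1 (0.705), for PSKH1 PSD4 (0.809), RHPN1 (0.788) and APOBEC3C (0.743), and for LHFPL4 TNFRSF12A (0.652) and CD99L2 (0.647). Without the siIGF2BP3 libraries these values lay between 0.667 and 0.859. Among the 5 genes, CA2 and CD59 had r = 0.934 over all libraries but 0.141 within groups. TMEM198 and PSKH1 had 0.611 and -0.0187, so the likeness of the pairs lay between groups and not between wells of a group.

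The other genes of each member's pathway were counted from lists drawn up with earlier results known. CA2 stands in the carbonic anhydrase list, CD59 among the complement regulators, TMEM198 in the Wnt list, PSKH1 in the kinase list and LHFPL4 in that of its family; the other lists hold no member. With siIGF2BP2, where 36.8% of all genes were called, a list whose called share is near that value is not set apart by its count. Of 15 carbonic anhydrase genes, 6 were tested, among them CA12, a cell-surface enzyme, and CA13, a cytosolic one close to CA2. None was called with Dox in sgIGF2BP3 cells (median log2 fold change 0.13, all genes 0.0027) or with siIGF2BP2 (median -0.07, all genes 0.01). With siControl against DMSO in sgIGF2BP2 cells, CA2 fell and 2 of the 6 rose, CA12 by 0.24 (adjusted p = 0.04995) and CA13 by 0.31 (adjusted p = 7.39e-05). Both were named after their values were seen. In that comparison 18.4% of all genes were called, and 2 of the 5 members, CA2 and PSKH1. The median log2 fold change of the 6 was 0.07 there and, as a description, -0.11 with siControl against DMSO in sgIGF2BP3 cells. Of 9 tested carriers of bicarbonate, protons and lactate, 1 rose and 4 fell with siIGF2BP2, beside 36.8% of all genes called. SLC16A1, the lactate carrier MCT1, fell by 0.57 ± 0.09 (12.4 against 18.4 CPM), and SLC4A7, a sodium bicarbonate carrier, by 0.50 ± 0.07. With Dox in sgIGF2BP3 cells 1 of the 9 rose, beside 2.64% of all genes called.

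Around CD59, 4 of 11 complement regulators were tested. With siIGF2BP2, 1 of the 4 rose and 1 fell, beside 36.8% of all genes called. CLU, a secreted inhibitor of the pore, rose by 0.21 ± 0.05 (adjusted p = 0.00033). CD55, a GPI-anchored regulator of an earlier step, fell by 0.21 ± 0.07 (adjusted p = 0.0185). None of the 4 was called with Dox in sgIGF2BP3 cells. Of 7 genes for components of the pore, C5 and C8G were tested, and C5 rose with siIGF2BP2, by 0.71 ± 0.15 (5.09 against 3.10 CPM). Of 27 tested genes that build or attach the GPI anchor on which CD59 depends, 8 rose, 4 fell and 15 were not called with siIGF2BP2 (median 0.10), so 12 were called, beside 36.8% of all genes. PIGP and PIGQ, both subunits of the enzyme of the first step, moved apart: PIGP fell by 1.31 ± 0.12, from 11.9 to 4.79 CPM, and PIGQ rose by 0.73 ± 0.05, from 73.3 to 122 CPM. PGAP3, which remodels the anchor's lipid, rose by 0.65 ± 0.11. None of the 27 was called with Dox in sgIGF2BP3 cells (median 0.03).

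For TMEM198, all 14 genes of Wnt receptor phosphorylation were tested, 3 rose, TMEM198 included, and 2 fell with siIGF2BP2 (median -0.06), a share close to the 36.8% of all genes. DVL1, a scaffold that gathers the receptors, fell by 0.23 ± 0.04, and CSNK1G3, a casein kinase 1, by 0.20 ± 0.07 (adjusted p = 0.0208). For PSKH1, 13 of 18 CAMK-group kinase and calmodulin genes were tested. With siIGF2BP2, 3 rose, PSKH1 included, and 2 fell (median -0.02), again close to the 36.8% of all genes. CAMK1D fell by 0.58 ± 0.06 and DAPK1, a kinase of cell death, by 0.27 ± 0.06. With Dox in sgIGF2BP3 cells, where 2.64% of all genes were called, CALM2, a calmodulin gene, was the single gene of this list called. It fell by 0.15 ± 0.04 (adjusted p = 0.0432). For LHFPL4, LHFPL2 was the other tested gene of its family of 6 and fell by 0.29 ± 0.07 with siIGF2BP2. Of its inhibitory synapse partners, 4 of 11 were tested, and 2 rose with siIGF2BP2, beside 36.8% of all genes called. Among these 2 was NLGN2, which rose by 0.30 ± 0.11 (adjusted p = 0.0207).

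**Figure D4:**
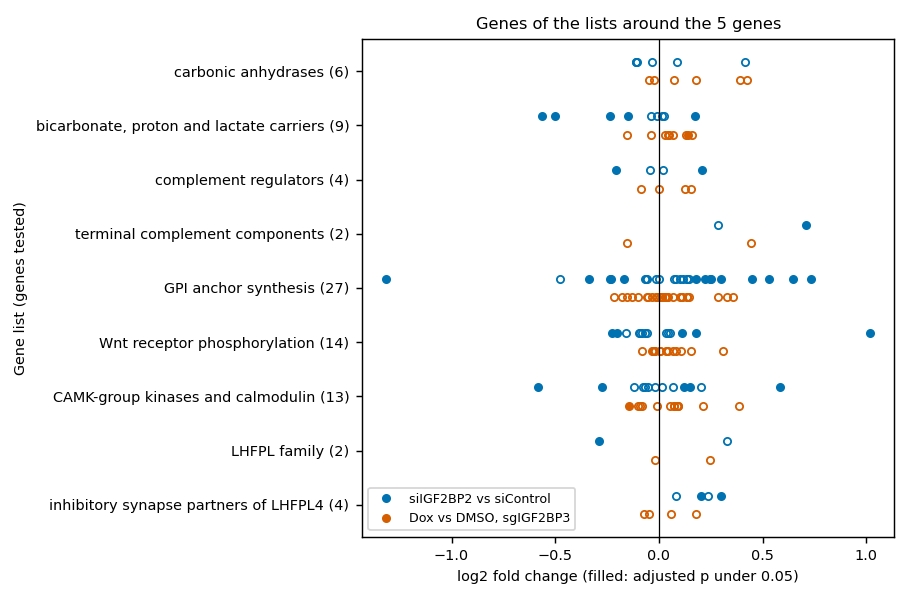
Log2 fold changes (x axis) of the tested genes of 9 lists (y axis, number tested in brackets) for siIGF2BP2 against siControl (blue) and Dox against DMSO in sgIGF2BP3 cells (orange); each point is a gene, filled where the adjusted p was under 0.05. PIGP at -1.31 and TMEM198 at 1.02 are the outermost blue points, and CALM2 at -0.15 is the filled orange point below 0.

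On the genome, the 5 genes lie on 5 chromosomes. The nearest tested gene to CA2 is CA3, for which no comparison named here was called; WWP1, 861245 bases away on the other side, fell by 0.65 with siIGF2BP2 (adjusted p = 1.59e-15). Around TMEM198, OBSL1 lies 134 bases away and rose by 0.39 with siIGF2BP2, GMPPA rose by 0.22, and CHPF, which overlaps TMEM198 on the opposite strand by 125 exon bases, rose by 0.21. A further antisense gene that shares 153 bases with TMEM198 has no row in the count table. CHPF had at least 1755 counts in a library, against at most 132 for TMEM198. The library kit was directional, but whether the authors' counting used strand is not stated, so reads of CHPF and TMEM198 in the shared bases cannot be told apart. PSKH1 shares 361 opposite-strand bases with CTRL, which had at most 6 counts, and 65 with ENSG00000261884, which had at most 45. For PSKH1, EDC4 fell by 0.16 with siIGF2BP2. For CD59 (C11orf91 and FBXO3) and LHFPL4 (SETD5 and MTMR14), neither neighbour was called with siIGF2BP2 or with Dox in sgIGF2BP3 cells.

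The higher and the lower members differ in base composition. The annotated transcripts of TMEM198, PSKH1 and LHFPL4 have a GC content of 65.0%, 60.4% and 60.6%, and those of CA2 and CD59 45.02% and 45.5%, where the median over 11401 tested genes with a transcript is 49.1%. GC content moved with several comparisons. In the 1933 genes at or above 60% GC, the median log2 fold change was 0.07 with siIGF2BP2, 0.06 with Dox in sgIGF2BP3 cells, -0.05 with Dox in sgAAVS1 cells and 0.02 with siIGF2BP3. With an offset for GC content and length, added after these values were seen, the siIGF2BP2 rises were 0.91 for TMEM198 (adjusted p = 4.66e-07) and 0.53 for PSKH1 (adjusted p = 1.14e-10). CD59 has a 3′ untranslated region of 7116 bases, longer than in 97.5% of the genes, and CA2 has one of 704 bases with 30.1% GC, higher than in 6.02% of them.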

How the data were processed

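RNA of 40 wells of RKO cells was sequenced after s4U labelling and alkylation. The deposited table holds raw counts per gene, made by the authors from all reads, so newly made and older RNA are not separated. Reads were converted with bcl2fastq 2.20.0.422 and aligned with STAR 2.7.5c to hg38, per the submitters' processing notes; the counting tool and annotation are not given in the sources used here. Library totals were 10018181 to 24822807 counts. Genes with too few counts were removed with filterByExpr, which left 11428 of 19962 genes with 99.976% of the counts.

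Counts were fitted with edgeR 4.0.16 in R 4.3.3 (TMM factors, glmQLFit and glmQLFTest, 1 coefficient per group, all 40 libraries), with Benjamini-Hochberg adjustment over the 11428 genes and a threshold of 0.05. SEs of log2 fold changes were taken from the F statistic. The test was tested on simulated counts with known changes. Alternatives were RLE factors, no and a stricter filter on low counts, libraries thinned to the smallest total, fits of only the groups compared, a replicate block, each library left out, DESeq2 1.42.0 and, added after the values were seen, a GC and length offset, DMSO in place of siControl, and differences between siRNA and Dox effects. The members and lists were chosen with earlier results of these data known. Comparisons that share libraries with the choice (those with siIGF2BP3 or with siControl of sgIGF2BP3 cells) were not tested.

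Named genes were the 5 members, the targets, up to 3 called genes per list with the largest change in each independent comparison, the 3 genes most alike in pattern, and genomic neighbours; some genes that this rule names are not reported here. Positions and transcripts are from GENCODE 29 on GRCh38. Replicate numbers were not taken as pairs, since nothing in the labels says that a number marks a shared day.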

Additional observations from a re-analysis of the deposited data

Results flagged for a closer look

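In 2 of 50 groups of 4 libraries (5 genes in 10 groups), 1 library lay far from the other 3, by a gap at or past Dixon's 95% critical value; chance gives about 1 in 20 groups. CA2 in DMSO replicate 3 of sgAAVS1 cells was at 17.3 CPM, below the others at 18.4 to 18.6 CPM, with a gap of 0.894 of the range. LHFPL4 in DMSO replicate 2 of sgIGF2BP3 cells was at 4.89 CPM, above the others at 4.74 to 4.76 CPM.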

How the results depend on the processing

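For TMEM198 and PSKH1, the rise with siIGF2BP2 over siControl passed in every alternative run. CA2 and CD59 with Dox in sgIGF2BP3 cells passed in none; their values without 1 library ran from -0.066 to 0.065 and from -0.019 to 0.026. Against DMSO in place of siControl, CA2 with siIGF2BP2 was called, at -0.58, which holds the fall with siControl itself.

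Genes called with Dox in sgIGF2BP3 cells numbered 302, 477 in a fit of only the groups compared and 108 to 285 with 1 library left out (108 without Dox replicate 4, 172 without Dox replicate 2, 162 and 151 without DMSO replicates 3 and 4). For the Dox effect of sgIGF2BP3 minus sgAAVS1 cells, 889 became 439 with the GC and length offset and 428 to 1415 with 1 library left out (428 without sgIGF2BP3 Dox replicate 4, 540 and 1415 without sgAAVS1 DMSO replicates 2 and 4). Between DMSO libraries of sgIGF2BP3 and sgAAVS1 cells, 2 became 35 with no filter, 5 with the stricter filter, 6 with the replicate block, 4 in thinned libraries, 4 with only the groups compared, 7 with DESeq2 and 1 to 74 with 1 library left out (74 without sgAAVS1 DMSO replicate 4). Between those of sgIGF2BP2 and sgAAVS1 cells, 2 became 4 with no filter and 1 to 2 with 1 library left out. The cause was not tested.

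Changes of sign touched values that passed no test. CD59 between the DMSO libraries of sgIGF2BP2 and sgAAVS1 cells turned to 0.0018 (RLE), 0.0035 (no filter), 0.00016 (replicate block), 0.0024 (only the groups compared) and 0.0020 (DESeq2). Thinned libraries gave -0.037 for PSKH1 with Dox in sgAAVS1 cells, -0.11 for LHFPL4 in the sgIGF2BP3 minus sgAAVS1 Dox effect, -0.16 for TMEM198 in the sgIGF2BP2 one, -0.0024 for CD59 and -0.021 for CA2 between DMSO lines, -0.013 for CD59 with siControl, and -0.075 for CA2 in siIGF2BP2 minus Dox. Fitting only the groups compared gave -0.0015 for LHFPL4 in the sgIGF2BP3 minus sgAAVS1 Dox effect. The GC and length offset gave -0.018 for PSKH1 with Dox in sgIGF2BP3 cells, 0.011 for CD59 with siIGF2BP2, -0.037 for PSKH1 and -0.073 for LHFPL4 in the sgIGF2BP3 minus sgAAVS1 Dox effect, -0.099 for TMEM198 in the sgIGF2BP2 one, -0.022 for CD59 between DMSO lines, -0.045 with siControl, and 0.017 in siIGF2BP2 minus the Dox effect of sgIGF2BP3 cells. With 1 library left out, PSKH1 with Dox in sgAAVS1 cells ran from -0.025 to 0.077. In the sgIGF2BP3 minus sgAAVS1 Dox effect, CA2 ran from -0.11 to 0.017, TMEM198 from -0.14 to 0.10, PSKH1 from -0.024 to 0.087 and LHFPL4 from -0.071 to 0.080. In the sgIGF2BP2 one, TMEM198 ran from -0.10 to 0.092 and LHFPL4 from -0.21 to 0.075. Between DMSO lines, CA2 ran from -0.045 to 0.086 and CD59 from -0.0049 to 0.027 for sgIGF2BP3, and CA2 from -0.031 to 0.046 and CD59 from -0.018 to 0.015 for sgIGF2BP2. CD59 with siControl ran from -0.0082 to 0.025.

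Deviations of same-numbered libraries correlated at -0.090 to 0.097. For siControl and DMSO of sgIGF2BP2 cells, every siControl library correlated best with the DMSO library of its own number. The same held for DMSO of sgIGF2BP3 and sgAAVS1 cells. With Dox in sgIGF2BP3 cells and with siIGF2BP2 over siControl, none did. The labels do not say what a number marks, so the numbers were not taken as pairs. With the replicate block TMEM198 rose by 1.03 and PSKH1 by 0.58 with siIGF2BP2, and TMEM198 with siControl passed (-0.43, adjusted p = 0.0380). TMEM198 and LHFPL4, with 28 to 132 and 29 to 119 counts per library, have the fewest counts of the 5 members and the largest SEs.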
